A study of Mus musculus with 15 samples.

Results

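The genes described here encode the proteins of the cytosolic ribosome, the particle that translates messenger RNA outside mitochondria. They were read from CUT&RUN profiles of NRL in mouse retina. CUT&RUN tethers a nuclease to an antibody on chromatin, so that DNA near the bound protein is cut out and sequenced. NRL is a basic leucine zipper protein of the Maf family that is needed for the rod photoreceptor fate. The members are all peaks of the deposited quantitation whose annotated symbol is that of a cytosolic ribosomal protein gene, without the Rps6k kinases: 62 peaks at 53 genes, of 8996 peaks at 6860 gene symbols. The rule uses gene symbols alone.

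All groups were dissociated retinal cells of C57BL/6J mice probed with an anti-NRL antibody, 250000 cells per experiment, and they differ in age alone: postnatal day 2 (P2), 4 (P4), 10 (P10) and 28 (P28). The labels name 15 libraries, of which 3 are of P2 and 4 of every later age. Quantified values were at hand for 8 of them, a pair per age: replicates 1 and 4 for P10, and replicates 3 and 4 for the other ages. Both values of an age are given with the lower replicate number first. The other 7 libraries, and any library without the NRL antibody or from mice lacking NRL, were not analysed here, so a level is signal in a called peak with no background measured beside it. The labels give no animal, litter or sex for a library, so p-values measure the spread between these libraries, which may be technical. Reads in the 8996 peaks ranged from 49430 (P2 replicate 4) to 227692 (P10 replicate 4) per library, with a median of 4 to 15 reads per peak, and the 62 member peaks held 421 to 1673 reads per library. All 7 rod marker genes looked for had a peak, among them Gnat1, Pde6b and Nrl. None of 4 cone, 3 Müller glia, 3 amacrine and ganglion cell or 3 microglia and vessel markers had one. Of 3 bipolar markers 1 did (Trpm1). These lists are short, so they do not show that other genes of those cell types lacked a peak. In whole retina, a larger share of rods and more NRL signal per rod cannot be told apart.

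A ribosome has a small subunit, which reads the messenger RNA, and a large subunit, which joins amino acids and carries a flexible stalk that recruits translation factors. The genes for its proteins are expressed in nearly all cells and tend to have compact, GC-rich promoters without a TATA box. Photoreceptors make large amounts of protein, since rods renew their outer segments throughout life. In this retina, 50 of 77 canonical ribosomal protein genes had a peak annotated to them in the quantitation (64.9%), against 28.6% of 21900 protein-coding RefSeq genes. By role these were 22 of 31 small subunit genes, 25 of 43 large subunit genes and all 3 stalk genes (Rplp0, Rplp1 and Rplp2). Of the 77, 47 had a peak at the start site. In the lists read below, the share of genes with a peak was 51.4% for translation factors and 42.3% for mitochondrial ribosomal proteins. It was 39.5% for ribosome assembly, 88.9% for regulators of ribosomal protein messages and 66.7% for 3 ribosomal proteins named otherwise. The differences between these shares were not tested. The other 3 member genes were the relatives Rpl22l1, Rps27l and Rps27rt, a retrogene. The Rps27rt peak also covered the RefSeq starts of Rps27 and Rab13, so its signal cannot be given to 1 of these genes. Canonical genes with no quantified peak under their symbol included Rps2, Rps4x, Rpl4, Rpl5 and Rpl7, 27 in all. Rps27 is counted among the 27, although the Rps27rt peak covered its start.

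The peaks lay at the promoters. Of the 62, 51 overlapped the annotated transcription start (82.3%, against 45.8% of all peaks), 1 ended 12 bp upstream of it (Rps27a), and 10 lay over 1 kb away. Of the 51, 48 had their centre within 200 bp of the start, and the median centre was 8 bp upstream. Several promoters are shared. The Rpl9 peak held the start of Lias, a lipoic acid synthase, and both Rpl18 peaks held a start of Sphk2, a sphingosine kinase. The Rps28 peak held the start of Ndufa7, a subunit of respiratory complex I, and the Rps18 peak that of Vps52, a membrane-tethering protein. Signal at these peaks is not separable between the neighbours.

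The printed windows show the promoter sequence under or beside 5 of these peaks: those of Rps19 and Rpl10a, the strongest members, and those of Rps9, Rpl9 and Rps3, which hold motifs near to what Maf, AP-1, CREB or CRX proteins are known to bind. Each runs 5′ to 3′ on the gene's strand from 250 bases before to 50 after the RefSeq start (GRCm38.p6). The windows of Rps19, Rpl10a and Rps9 lay wholly inside the peak, and 283 bases of the Rpl9 window and 153 of the Rps3 window did. Capitals mark matches to any of the 8 motifs searched.
Rps19, chr7:24884342-24884641, plus strand: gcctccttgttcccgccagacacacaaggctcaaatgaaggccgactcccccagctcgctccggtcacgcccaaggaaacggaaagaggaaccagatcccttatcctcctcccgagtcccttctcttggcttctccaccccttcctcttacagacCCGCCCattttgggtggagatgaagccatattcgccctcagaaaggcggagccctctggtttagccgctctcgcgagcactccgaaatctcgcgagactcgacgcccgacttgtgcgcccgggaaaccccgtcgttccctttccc
Rpl10a, chr17:28328221-28328520, plus strand: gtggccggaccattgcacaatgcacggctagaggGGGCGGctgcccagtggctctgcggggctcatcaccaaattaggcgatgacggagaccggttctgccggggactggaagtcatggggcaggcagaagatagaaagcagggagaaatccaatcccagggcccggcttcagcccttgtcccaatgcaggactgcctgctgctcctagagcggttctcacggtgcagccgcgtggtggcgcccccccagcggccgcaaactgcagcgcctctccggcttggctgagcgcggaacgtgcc
Rps9, chr7:3703791-3704090, plus strand: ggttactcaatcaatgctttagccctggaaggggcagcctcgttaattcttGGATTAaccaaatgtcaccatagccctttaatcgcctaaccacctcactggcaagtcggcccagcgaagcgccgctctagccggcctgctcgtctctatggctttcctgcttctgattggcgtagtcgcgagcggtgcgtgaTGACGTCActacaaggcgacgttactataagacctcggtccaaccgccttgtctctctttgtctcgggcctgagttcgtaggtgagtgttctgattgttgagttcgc
Rpl9, chr5:65391382-65391681, minus strand: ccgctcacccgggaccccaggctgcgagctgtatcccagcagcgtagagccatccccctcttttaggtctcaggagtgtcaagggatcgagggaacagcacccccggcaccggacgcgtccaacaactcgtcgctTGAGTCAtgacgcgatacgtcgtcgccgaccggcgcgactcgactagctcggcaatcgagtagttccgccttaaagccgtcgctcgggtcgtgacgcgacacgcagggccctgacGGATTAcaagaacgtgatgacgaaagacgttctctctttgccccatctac
Rps3, chr7:99483660-99483959, minus strand: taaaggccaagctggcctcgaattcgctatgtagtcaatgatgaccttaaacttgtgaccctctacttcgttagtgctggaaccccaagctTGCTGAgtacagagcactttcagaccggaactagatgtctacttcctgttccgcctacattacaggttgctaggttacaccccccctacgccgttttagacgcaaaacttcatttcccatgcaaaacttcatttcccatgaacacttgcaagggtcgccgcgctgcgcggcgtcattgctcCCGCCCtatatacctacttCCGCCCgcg

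In the Rps19 and Rpl10a windows the capitals are a GC box, and no other searched motif matched. The capitals in Rps9 are a CRX motif followed by a CRE, the palindrome that CREB family proteins recognise. Those in Rpl9 are an AP-1 site and, at the start, a CRX motif. In Rps3 they are a Maf half-site, which lies outside the peak, and past the start a pair of GC boxes inside it.

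A window touching the peak was at hand for 39 of the 51 member genes with a peak at or near the start, and both strands were searched. Only 17 of the 39 windows lay wholly inside the peak, so a match may lie outside it. The Maf half-site TGCTGA was found in 6 of the 39 (15.4%), against 19.5% of all 32851 promoter windows and 16.1% of the 4796 windows that touched any peak. The AP-1 site TGANTCA was in 2 (Rpl9 and Rpl22; 5.13%, against 7.81% and 3.94%), and the CRX motif TAATCC in 3 (Rps9, Rps28 and Rpl9; 7.69%, against 7.06% and 6.55%). The CRE TGACGTCA was in 3 (Rps9, Rpl18 and Rpl27a; 7.69%, against 1.79% and 5.11%). At least 1 of these 4 motifs was in 12 of 39 windows (30.8%), beside 31.9% of all windows and 27.8% of those touching a peak. Thus the share with a motif of this kind was near that of promoters in general.

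The ETS motif CCGGAAG was in 15 member windows (38.5%), against 8.86% of all windows and 23.9% of those touching a peak. Its carriers included Rps6, the ribosomal protein phosphorylated by S6 kinases, Rpl11, which binds Mdm2, and Rpsa, also known as the laminin receptor. The GC box GGGCGG was in 25 (64.1%, against 35.7% and 70.3%). The YY1 motif AAGATGG was in 4 (10.3%, against 6.34% and 9.82%), and the TATA box TATAAA in 4 (10.3%, against 13.6% and 5.61%). No motif searched is contained in another. These matches are descriptions of the windows and were not tested.

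**Figure D1:**
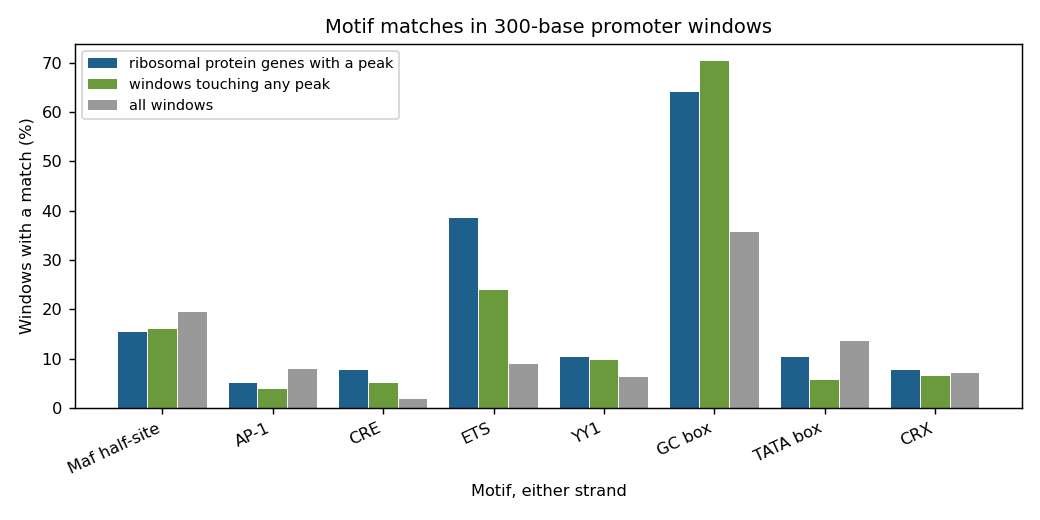
Share of 300-base promoter windows with at least 1 match on either strand, for 39 ribosomal protein gene windows touching their peak, 4796 windows touching any peak and all 32851 windows. ETS was found in 38.5% of the ribosomal protein gene windows and the Maf half-site in 15.4%.

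NRL signal at the members was of ordinary strength. The level is RPKM, reads per kilobase of peak scaled to the size of the library, rebuilt with each peak's own width. The median over member peaks of the mean of 8 libraries was 4.26 RPKM (range 1.61 to 22.6), beside 4.05 over all peaks and 3.79 over the 4067 start-site peaks of other genes. Between 0.717% and 1.03% of the reads in peaks fell in member peaks. For scale, 3 reads in a peak of median width are worth 1.16 to 1.77 RPKM, and single member peaks held 0 to 235 reads in a library.

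**Figure D2:**
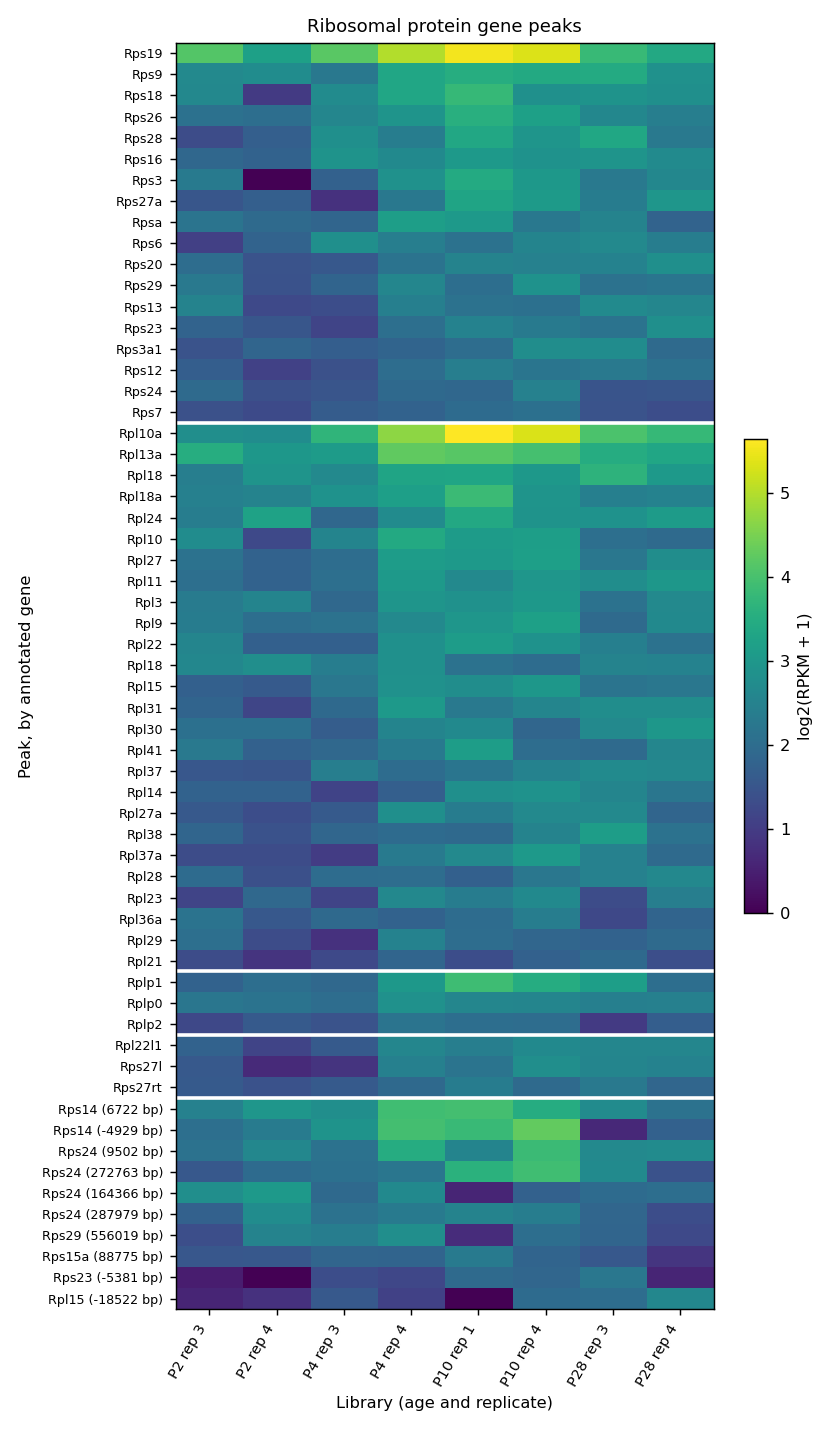
Rebuilt level of all but 2 of the 62 member peaks (rows) in the 8 libraries (columns), as log2(RPKM + 1). From the top, blocks hold small subunit, large subunit, stalk and related genes at or near the start site, then the 10 peaks over 1 kb away with their distance in bp. Rps19 and Rpl10a stand out at P10, and most other rows are of similar level.

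Among small subunit genes Rps19, which is mutated in Diamond-Blackfan anaemia, had the strongest peak (chr7:24883904-24884641). Its levels were 16.6 and 8.25 RPKM in the P2 pair, 17.4 and 30.8 in the P4 pair, 45.5 and 39.7 in the P10 pair, and 13.0 and 9.54 in the P28 pair. Both P10 libraries were above all others, and the P28 range overlapped that of P2. Rps9 gave 5.31 and 5.73 RPKM in the P2 pair, 3.82 and 9.18 in the P4 pair, 10.4 and 9.77 in the P10 pair, and 9.95 and 6.25 in the P28 pair. The middle of the 19 small subunit start-site peaks was Rpsa, with 3.52 and 2.90, 2.58 and 7.97, 7.20 and 3.80, then 4.72 and 2.49 RPKM in order of age. The lowest was Rps7, with 1.65 and 1.43, 2.14 and 2.41, 2.95 and 3.27, then 1.74 and 1.53 RPKM. Its 2 P10 libraries were above the other 6, with 10 and 14 reads.

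Among large subunit genes Rpl10a, a protein near the exit site for transfer RNA, had the strongest peak (chr17:28327982-28328620), ranked 216 of all 8996 by mean level. It gave 5.91 and 5.66 RPKM in the P2 pair, 11.9 and 24.8 in the P4 pair, 49.1 and 38.9 in the P10 pair, and 15.5 and 12.8 in the P28 pair. P10 was again above every other library, and P2 was below all of them. Rpl13a, also known for a role in silencing inflammatory messages, gave 10.4 and 6.90 RPKM in the P2 pair, 7.53 and 18.3 in the P4 pair, 17.1 and 14.8 in the P10 pair, and 10.2 and 9.17 in the P28 pair. Its P10 libraries exceeded those of P2 and P28 and overlapped P4. The stronger Rpl18 peak gave 4.36 and 6.59 RPKM in the P2 pair, 5.34 and 8.84 in the P4 pair, 8.97 and 7.10 in the P10 pair, and 11.5 and 7.29 in the P28 pair, with overlap between neighbouring ages. In the middle of the large subunit stood Rpl15, with 2.34 and 2.02, 3.71 and 6.25, 5.85 and 6.95, then 3.49 and 3.69 RPKM in order of age. Rpl21 was the lowest, with 1.48 and 0.812, 1.36 and 2.59, 1.51 and 2.40, then 2.81 and 1.57 RPKM.

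The 3 stalk genes ranged from a mean of 6.30 RPKM (Rplp1) through 4.40 (Rplp0) to 2.24 (Rplp2). Rplp1 gave 2.40 and 3.11 RPKM in the P2 pair, 2.77 and 7.0 in the P4 pair, 13.7 and 10.2 in the P10 pair, and 8.02 and 3.12 in the P28 pair, with both P10 libraries on top. Rplp0 was flatter, with 3.62 and 3.45, 3.07 and 6.26, 5.01 and 4.91, then 4.45 and 4.46 RPKM in order of age. The relatives Rpl22l1, Rps27l and Rps27rt had means of 3.81, 3.36 and 2.76 RPKM.

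**Figure D3:**
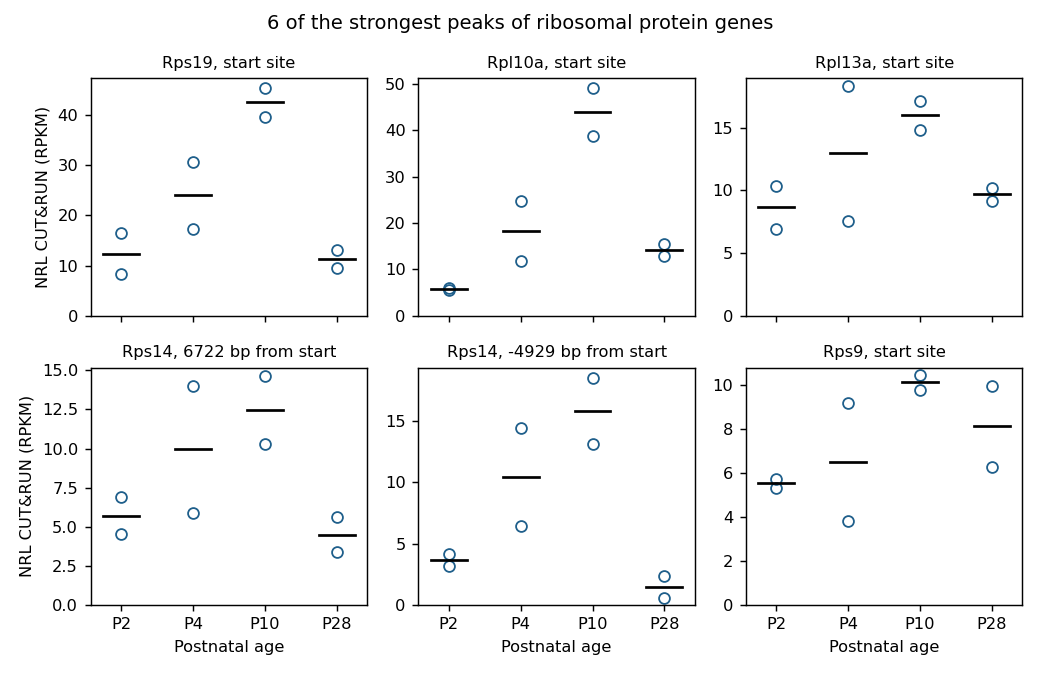
Rebuilt level (RPKM, linear axes from 0, scaled per panel) of 6 of the strongest member peaks by age. Circles are single libraries, 2 per age, and bars are their means. In Rps19 and Rpl10a both P10 libraries lie above all others, and at the Rps14 peak upstream of the start both P28 libraries lie below all others.

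The libraries also differed as a whole. The median over all peaks was 2.24 and 2.09 RPKM in the P2 pair, 2.52 and 4.48 in the P4 pair, 6.29 and 6.09 in the P10 pair, and 3.81 and 3.66 in the P28 pair. The 51 start-site members had medians of 3.18 and 2.27 RPKM in the P2 pair, 2.76 and 5.29 in the P4 pair, 5.30 and 5.92 in the P10 pair, and 4.79 and 4.64 in the P28 pair. P4 replicate 4 stood well above P4 replicate 3 in both sets. The share of library reads lying in peaks moved the same way, from 0.940% (P2 replicate 4) to 3.08% (P10 replicate 1). Its part in the age differences was not tested.

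**Figure D4:**
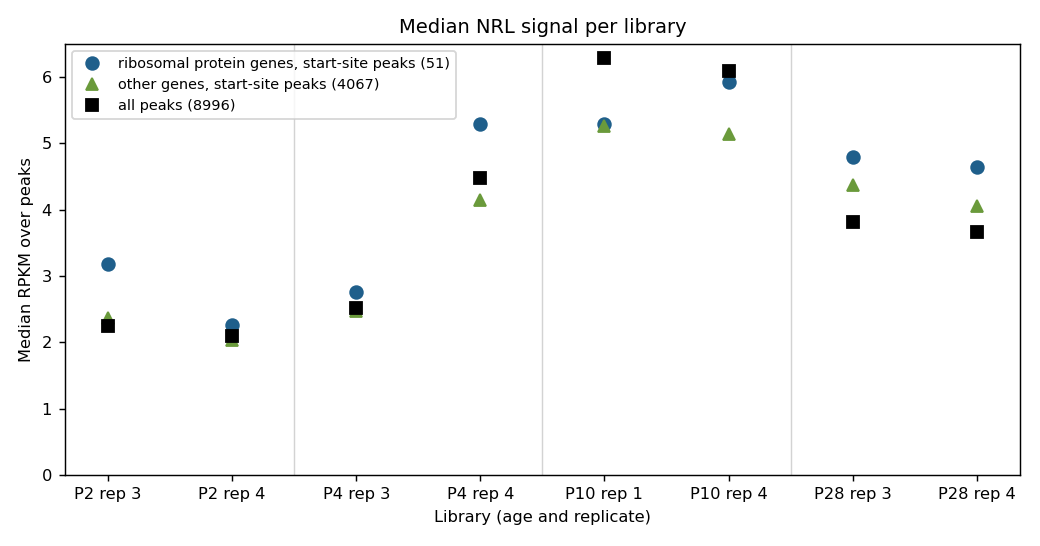
Median RPKM per library over the 51 start-site member peaks (circles), 4067 start-site peaks of other genes (triangles) and all 8996 peaks (squares). All 3 medians are lowest in P2 replicate 4, and all-peak medians exceed those of the members only at P10.

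The first comparison asks what differed between P2 and P4, at the height of rod birth and soon after. No member passed the test (0 of 62, limma on log2(RPKM + 1), adjusted p under 0.05 over all peaks), nor did any peak of the table (percent called 0 in both directions). At an unadjusted p under 0.05, 6 members were higher at P4 and 0 lower, and 1295 and 70 of all peaks. The median member differed by 0.39 (log2), beside 0.48 for all peaks. Rpl10a had the smallest adjusted p, with a difference of 1.43 ± 0.54 (SE, adjusted p = 0.234). With limma-voom and TMM scaling, which sets the bulk of peaks equal between libraries, 0 members were called, beside 0.111% of all peaks higher and 0.200% lower. Without P2 replicate 3, or without P4 replicate 3, 1 member was called higher, beside 192 and 829 of all peaks.

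From P4 to P10, when rods mature, 3 members rose and 0 fell (limma). Of all peaks 15.6% were called higher and 1.51% lower. At start sites 1 of 51 members was called higher and 0 lower, beside 220 and 5 of the 4067 peaks of other genes. The difference between these shares was not tested. Rps27a, which encodes a fusion of ubiquitin and a small subunit protein, gave 0.754 and 3.81 RPKM at P4 and 8.88 and 7.40 at P10 (11 against 39 reads). The ages did not overlap, and the log2 difference was 1.65 ± 0.51 (adjusted p = 0.0303, limma). Rpl14, on the outer face of the large subunit, gave 1.21 and 2.27 RPKM at P4 and 6.00 and 6.34 at P10 (8 against 28 reads), a difference of 1.42 ± 0.46 (adjusted p = 0.0373, limma). The peak 272763 bp from Rps24 was the other, at 1.61 ± 0.51 (adjusted p = 0.0335, limma). This peak and that of Rps27a were in the authors' P10 peak list alone, as were 41.9% of all peaks. Their higher level at P10 is therefore not independent of how they were found. All 3 calls were lost without P4 replicate 3, without P10 replicate 1 and without P10 replicate 4, where 0 members passed. Without P4 replicate 4, 8 members rose, beside 2963 of all 8996 peaks. Without the other 3 named libraries, 179, 192 and 340 of all peaks were called higher, in the same order.

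At Rps19 the difference from P4 to P10 was 0.85 ± 0.55 (adjusted p = 0.270) and at Rpl10a 1.29 ± 0.54 (adjusted p = 0.0953, limma). The median member differed by 0.39, beside 0.73 for all peaks, and 55 of 62 were positive. At start sites the medians were 0.41 for members and 0.59 for peaks of other genes. Set against the bulk of all peaks, most of which are not at start sites, the sign of the member median was opposite. With each library centred on its median over peaks, the median member differed by -0.32, beside 0.02 for all peaks, and with limma-voom by -0.37, beside 0.01. Centred, 0 members rose and 2 fell (all peaks 2.88% higher, 3.26% lower). With limma-voom 0 rose and 3 fell (5.15% and 6.74% of all peaks). These were distal peaks annotated to Rps29 and Rps24 under both, and the second Rpl18 peak under limma-voom.

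From P10 to P28, the adult, 4 members fell and 0 rose (limma), while 20.7% of all peaks were called lower and 1.29% higher. At start sites 2 of 51 members were called lower and 0 higher, beside 236 and 33 of the 4067 peaks of other genes. Rps19 was lower by 1.84 ± 0.55 on the log2 scale (adjusted p = 0.0206, limma), with 105 reads against 448, a 3.73-fold lower level (95% interval 3.01 to 4.66, exact binomial on reads). Rpl10a was lower by 1.56 ± 0.54 (adjusted p = 0.0407, limma), with 114 reads against 398, 3.05-fold (2.47 to 3.80). Such intervals cover counting error only. The peak 4929 bp upstream of Rps14 was lower by 2.85 ± 0.55 (adjusted p = 0.00116, limma), with 5 reads against 64, 11.2-fold (4.56 to 35.7). The peak 272763 bp from Rps24 was lower by 1.70 ± 0.51 (adjusted p = 0.0212, limma). This Rps24 peak was in the P10 list alone, and the Rps14 peak in those of P4 and P10. Both calls are therefore not independent of how the peaks were found.

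The Rps14 call held without each of the 8 libraries in turn (adjusted p 0.000126 to 0.0264, limma). That at Rps19 was lost without either P10 library or either P28 library (adjusted p 0.0717 to 0.182). The Rpl10a call was lost without each of these 4 (0.143 to 0.290) and without P2 replicate 3 (0.0523). The distal Rps24 call was lost without either P10 library or P28 replicate 4 (0.0943 to 0.341). As a whole the count fell to 1 without P10 replicate 1 or P28 replicate 4, and to 2 without P10 replicate 4 or P28 replicate 3. Counts over all peaks fell too, to 507, 1154, 675 and 1154 in that order, from 1974.

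The sign of the median member changed with the scaling here as well. It differed by -0.45, beside -0.69 for all peaks. Centred, it differed by 0.15, beside -0.09, and with limma-voom by 0.26, beside -0.06. Centring left 2 members lower (Rps19 and the Rps14 peak upstream) and 1 higher (a distal Rps24 peak), beside 8.56% and 4.28% of all peaks. With limma-voom 3 were lower (Rps19, Rpl10a and the same Rps14 peak) and 9 higher, beside 10.6% and 10.0% of all peaks. The 9 were Rpl31, Rpl28, both Rpl18 peaks, Rps13, Rpl37, Rpl30 and distal peaks of Rpl15 and Rps24. Rps19 and the upstream Rps14 peak were therefore lower at P28 than at P10 under all 3 scalings.

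**Figure D5:**
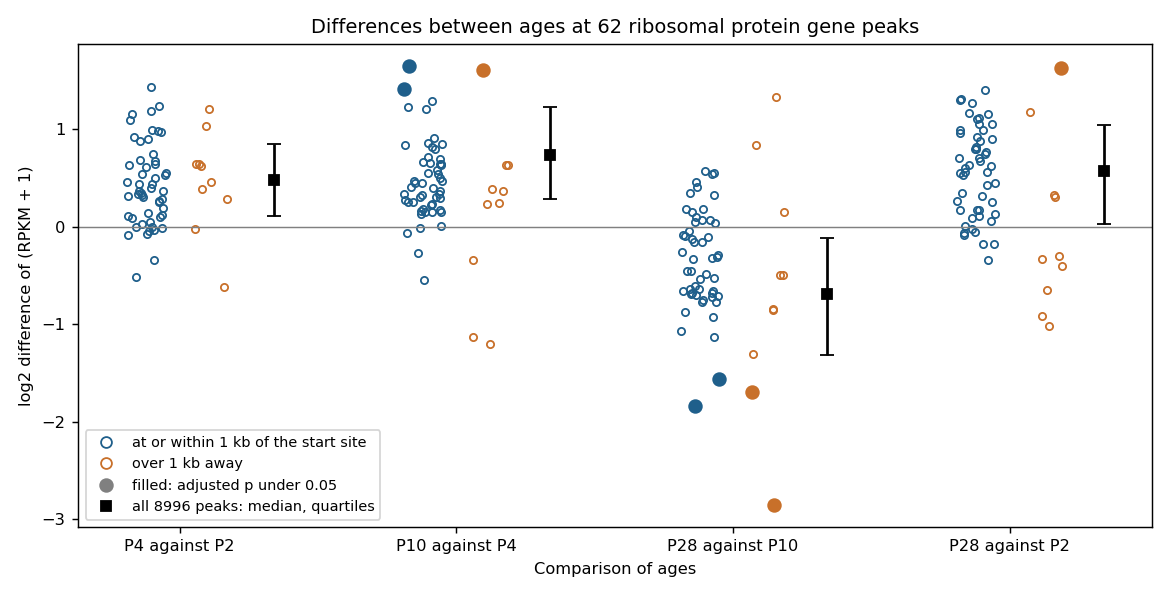
Log2 difference of (RPKM + 1) between ages for the 62 member peaks (circles), with those at or within 1 kb of the start site apart from those farther away. Filled circles passed limma at an adjusted p under 0.05, and squares with bars are the median and quartiles of all 8996 peaks. From P10 to P28 the 4 filled members lie below zero, the lowest at -2.85.

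Between the ends of the series, P2 and P28, 1 member was higher and 0 lower (limma), beside 9.64% and 3.00% of all peaks. At start sites 0 of 51 members were called higher and 0 lower, beside 309 and 7 of the 4067 peaks of other genes. The member called was the peak 18522 bp upstream of Rpl15, inside an intron of Ube2e1, a ubiquitin-conjugating enzyme. This peak was in the authors' P28 list alone, as were 8.70% of all peaks. A higher P28 level is therefore not independent of how the peak was found. Its levels were 0.496 and 0.749 RPKM at P2 and 3.05 and 5.16 at P28, a difference of 1.63 ± 0.54 (adjusted p = 0.0481, limma). This rests on 2 reads against 13, a ratio of 6.83 (95% interval 1.55 to 62.3), and the call was lost without 5 of the libraries in turn: either P2 library, either P4 library or P28 replicate 4. The count of members called was 0 without P2 replicate 4, 2 without P2 replicate 3 and 4 without either P4 library. Over all peaks it was 604, 1089 and, without P4 replicate 3 or 4, 1650 and 1639, beside 1137 with all libraries. Rps19 did not pass (difference -0.07 ± 0.55, 95% interval -1.21 to 1.07), nor did Rpl10a (1.15 ± 0.54, adjusted p = 0.151, limma). Centred, 0 members were higher and 2 lower (3.27% and 7.26% of all peaks), and with limma-voom also 0 and 2 (2.86% and 7.27%). The median member difference was 0.55 as scaled by reads, -0.03 centred and -0.07 with limma-voom.

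Over all 4 ages at once, 9 of 62 members differed (14.5%, limma F test), against 45.9% of all peaks. They were Rps19, Rpl10a, Rps3, Rps27a and Rps28 at or near the start, and distal peaks annotated to Rps14, Rps23 and Rps24 (a pair). At start sites 4 of 51 members were called (7.84%), beside 24.2% of the 4067 start-site peaks of other genes. Without Rps19 and Rpl10a it was 2 of 49 (4.08%). The difference between these shares was not tested. The count of members ranged from 1 (without P10 replicate 1) to 15 (without P4 replicate 3), and was 4 without P2 replicate 4 or P10 replicate 4. Over all peaks these counts were 1985, 4604, 3695 and 2197, beside 4128 with all libraries.

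By role, 8 of 29 small subunit peaks, 1 of 27 large subunit peaks (Rpl10a) and 0 of 3 stalk peaks differed over the ages (limma F test), beside the 45.9% of all peaks. Of the 8, 4 were distant peaks. At start sites it was 3 of 19 small subunit and 1 of 26 large subunit peaks (15.8% and 3.85%), beside 24.2% of other start-site peaks. Rps3, at the entry of the messenger RNA channel, gave 3.96 and 0 RPKM in the P2 pair, 2.40 and 6.29 in the P4 pair, 9.91 and 7.06 in the P10 pair, and 3.90 and 5.15 in the P28 pair (adjusted p = 0.0496, limma). Rps28 gave 1.5 and 2.27 RPKM in the P2 pair, 6.05 and 4.25 in the P4 pair, 9.38 and 6.68 in the P10 pair, and 9.22 and 3.90 in the P28 pair (adjusted p = 0.0497, limma). Both lay just inside the threshold, and P2 was the lowest age in Rps28.

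The 10 distant peaks carry the symbol of the gene whose start is nearest. One of them, the Rps14 peak at 4929 bp upstream of the nearest start, lies by the authors' annotation inside an intron of an Rps14 transcript. It gave 3.18 and 4.12 RPKM in the P2 pair, 6.42 and 14.4 in the P4 pair, 13.1 and 18.5 in the P10 pair, and 0.559 and 2.36 in the P28 pair. P28 was below every other library. The other Rps14 peak, 6722 bp downstream of the start, gave 4.54 and 6.87, 5.89 and 14.0, 14.6 and 10.3, then 5.59 and 3.38 RPKM in order of age. Rps14 had no quantified peak at its own start.

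Rps24 had 4 distant peaks. The one at 9502 bp gave 3.37 and 5.08, 3.39 and 10.4, 4.81 and 13.3, then 5.32 and 5.62 RPKM in order of age. The one at 164366 bp ran the other way, with 5.94 and 7.18 RPKM in the P2 pair, 2.80 and 5.39 in the P4 pair, 0.496 and 2.35 in the P10 pair, and 2.92 and 3.09 in the P28 pair. It was highest at P2. It alone of the members was in the P2 list only, so its high P2 level is not independent of how it was found. The one at 272763 bp, inside the long noncoding RNA gene Gm31775, gave 1.93 and 2.91, 3.24 and 3.64, 11.3 and 14.0, then 5.53 and 1.67 RPKM, so P10 was above all other libraries. The one at 287979 bp gave 2.37 and 5.72, 3.34 and 4.03, 4.74 and 4.22, then 2.62 and 1.54 RPKM. Peaks annotated to 1 gene thus differed in their order of ages, but this order is not independent of the age lists that held them.

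The remaining distant peaks were weak. The Rps29 peak at 556019 bp gave 1.57 and 4.74, 4.22 and 5.93, 0.654 and 3.11, then 2.57 and 1.36 RPKM in order of age. The Rps15a peak at 88775 bp gave 1.91 and 1.92, 2.57 and 2.52, 3.98 and 2.52, then 1.96 and 0.827 RPKM. The Rps23 peak at 5381 bp upstream gave 0.378 and 0, 1.53 and 1.29, 2.84 and 2.62, then 3.72 and 0.492 RPKM. The Rpl15 peak gave 2.00 and 1.12 RPKM at P4 and 0 and 2.95 at P10, beside the P2 and P28 values above. Each had under 6 RPKM in every library.

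The deposited peak lists, 1 per age and without replicates, hold 1221 (P2), 3161 (P4), 7520 (P10) and 3482 (P28) peaks. Genes of the same symbol rule numbered 11, 29, 54 and 32 in them, and their peaks made up 0.901%, 0.981%, 0.785% and 0.948% of each list. Cut to the 1221 strongest peaks of each age, the lists held 11, 11, 8 and 14 of these genes, and P10 was then the lowest. The start-site peaks of 7 genes overlapped a peak in all 4 lists, among them Rplp0, Rps19, Rpl13a and Rpl10a. They also include Rpl3, which lies by the site of peptide bond formation, and Rpl24, at the face between the subunits. These 7 are 13.7% of the start-site members, beside 11.2% of all start-site peaks. Another 16 member peaks were in the P10 list alone (25.8%, beside 41.9% of all peaks), among them Rps6 and Rpl11. At start sites this share was 21.6% for members, beside 29.3% for all peaks there. By the authors' own peak signal, Rps19 ranked 89, 64, 111 and 189 in the lists in order of age and Rpl10a 220, 86, 24 and 74, though ranks from lists of unequal length show no change. Rps2, Rps21 and Rpl26 had a peak in a list but none under their symbol in the quantitation.

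Other genes of protein synthesis were read for comparison, each from a list of its own. Of all peaks, 15.6% were called higher and 1.51% lower from P4 to P10, and 1.29% higher and 20.7% lower from P10 to P28. Between P2 and P28, 9.64% were higher and 3.00% lower at P28 (limma). Of the ribosomal proteins whose names fall outside the rule, such as Fau and Rack1, 2 of 3 listed had a peak, and 0 were called in any comparison. Of 37 translation factor genes 19 had a peak (22 peaks), with 2 higher from P4 to P10, 3 lower from P10 to P28 and 2 higher at P28 than at P2 (limma). Of 38 ribosome assembly genes 15 had a peak (15 peaks), and 0 were called in these pairs of ages. Regulators of ribosomal protein messages (such as Mtor and Larp1) had a peak at 8 of 9 genes (9 peaks), with 1 lower from P10 to P28 and 1 lower at P28 than at P2.

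Mitochondrial ribosomal proteins, which translate the mitochondrial genome, had a peak at 33 of 78 genes (38 peaks). Of these peaks 2 were higher from P4 to P10, 2 higher and 6 lower from P10 to P28, and 4 higher at P28 than at P2 (limma). Over all ages 15 of 38 differed (39.5%), beside 45.9% of all peaks. At start sites 10 of 30 did (33.3%), beside 4 of 51 for the cytosolic genes. Of the 4067 start-site peaks outside the cytosolic genes 24.2% did. The differences between these shares were not tested. Their median differences at start sites were 0.54 from P4 to P10 and -0.12 from P10 to P28, beside 0.41 and -0.32 for the cytosolic genes.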

How the data were processed

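NRL CUT&RUN libraries of mouse retina were compared between ages. Among the programs in the submitters' processing notes are MACS2 2.2.5, bedtools 2.29.0, Picard 2.20.8, Bowtie2 2.3.5.1, Trimmomatic 0.38 and SAMtools 1.9, with the build GRCm38.p6. Any scaling by the spike-in was not given in the sources used here. The authors deposited RPKM values per peak, and peak lists with a signal and a score per peak, used as the authors' own values. Every quantified peak overlapped a peak in the list of some age. A peak listed at a single age tends to be high there, so tests between ages are not independent of peak finding.

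The deposited RPKM values were whole reads divided by a width and a library scale (100% came out whole within 0.001 in each library), but each column after the first had been divided by the widths of peaks 39 rows further up per column. Of the peaks, 56.3% to 57.6% in those columns had been divided by a width off by over 1.5 times. Reads were therefore recovered and divided by each peak's own width; 39 of the widths the authors had used match no row and were solved from the values. limma 3.58.1 (R 4.3.3; trend, robust) was fitted to log2(RPKM + 1) of all 8996 peaks and 8 libraries with age as the factor (4 residual degrees of freedom) and Benjamini-Hochberg adjustment; the call was an adjusted p under 0.05. limma-voom was run on the recovered reads with trimmed-mean (TMM) factors. The fit was also run on simulated data, with changes set only at peaks of more reads than most members had. That run does not show what could be detected at the members. Distances to start sites are the authors' annotation.

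The libraries of an age differed by more than counting error (chi-square over degrees of freedom 1.13 to 1.40), and none were merged. Over the 62 member peaks, replicates correlated at 0.48 (P2), 0.72 (P4), 0.82 (P10) and 0.59 (P28), across peaks, which are not independent. Named peaks are taken from the 8 strongest, all called or distant members, and the highest, middle and lowest of each role; others named were chosen after their values were seen, and some genes are not reported here. Members and lists were chosen with earlier results of these data known.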

Additional observations from a re-analysis of the deposited data

How the results depend on the processing

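Calls among the 62 member peaks depended on the processing. From P4 to P10 the 3 calls became 0 with a pseudocount of 0.1. From P10 to P28 the 4 calls became 1 with that pseudocount, 1 with the values as deposited and 12 with limma-voom. Between P2 and P28 the 1 call became 0 with the pseudocount and 0 with the values as deposited. The count was 0 with only the libraries of those ages, 2 when centred and 2 with limma-voom. Among the 39 members with a mean of at least 10 reads 2 were called (Rpl31 and Rpl37). The Rpl15 peak called above was not among those 39. Over any age the 9 calls became 2 with the pseudocount and 5 when centred. Leaving out 1 library gave 0 to 1 member calls from P2 to P4, 0 to 8 from P4 to P10, 1 to 5 from P10 to P28, 0 to 4 between P2 and P28 and 1 to 15 over any age; the last, and limma-voom for it, were added after seeing the data.

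The replicate number was not used as a block, since no label says that it marks a shared litter, day or batch. Across peaks, same-numbered libraries deviated together by correlations of only -0.013 to 0.085. Among quantified libraries, number 1 occurs at P10 alone, so a block by number leaves P10 resting on replicate 4. The counts of calls with such a block therefore do not test pairing at P10. With the number as a replicate block, 0 members were called from P4 to P10, 1 from P10 to P28 and 2 over any age, beside 183, 432 and 2095 of all peaks.

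At Rps19 the sign turned from P4 to P10 with limma-voom (-0.00012), and between P2 and P28 without P2 replicate 3 (0.39) and without P28 replicate 4 (0.14; range without 1 library -0.53 to 0.39). For list membership, P2 held 11 genes by symbol, 10 by an overlap of 1 bp with a quantified peak and 7 by an overlap of at least 0.5 of it; the 1221 strongest peaks held 11 of 29 at P4, 8 of 54 at P10 and 14 of 32 at P28.

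Over all peaks, calls ranged without 1 library from 0 to 836 (P2 to P4; 0 with all), 215 to 3040 (P4 to P10; 1541), 507 to 2691 (P10 to P28; 1974), 604 to 1650 (P2 to P28; 1137) and 1985 to 4814 (any age; 4128). The pseudocount of 0.1 gave 8, 8, 474, 336 and 1520 in that order. The values as deposited gave 886 from P10 to P28 and 404 between P2 and P28. Only the libraries of P2 and P28 gave 899 between these ages. Of the 3950 peaks with a mean of at least 10 reads, 758 were called between P2 and P28. Centring gave 1862 over any age. A median of 5 to 18 reads per member peak and library limits what could be detected.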
